A study of Mus musculus with 18 samples.

Results

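The 18 RNA sequencing libraries of mouse colon were ranked by the summed TPM, a length-corrected share of transcripts, of the 13 messages encoded by the mitochondrial genome. The 9 libraries chosen by the highest sum were compared with the 9 of lowest sum. All 18 libraries were taken on day 2. The sham group of 6 had no colitis, and the other 2 groups of 6 had colitis provoked by the hapten TNBS, which inflames the colon within days, and were given vehicle or ISM012-042. ISM012-042 inhibits, within the gut, the prolyl hydroxylases (PHD) that tag hypoxia-inducible factor for breakdown. The labels give no strain, genotype, sex or age, and they leave unsaid whether each library is from an animal of its own, so each p-value refers to the spread among these samples, which may be technical. The set of high sum held sham replicates 3, 5 and 6, vehicle replicates 3, 4 and 5, and ISM012-042 replicates 1, 4 and 5. The set of low sum held sham replicates 1, 2 and 4, vehicle replicates 1, 2 and 6, and ISM012-042 replicates 2, 3 and 6. Each treatment group thus gave 3 libraries to each set, and treatment group was a term in the fit. Mitochondrial sum is a measured property of each library and not a treatment, so the comparison describes what else differed between these libraries.

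Mitochondrial DNA codes for a small part of the oxidative phosphorylation machinery. Its messages are made as long transcripts that span many genes, by a polymerase and factors imported from the cytosol, and are then cut and polyadenylated in the organelle. All other subunits of the respiratory chain, the mitochondrial ribosome and the enzymes of the matrix are encoded in the nucleus. In the colon the absorptive epithelium oxidizes butyrate in its mitochondria, and muscle layers, nerves, fat and immune cells around it carry mitochondria as well. The mitochondrial share of a piece of tissue can thus reflect its cells and the RNA in each cell. No measure of RNA quality was used here, so its part in the share was not tested.

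The mitochondrial messages made up 20.1% to 57.8% of the deposited TPM of a library, with a median of 32.8%. In the 9 libraries of high sum the lowest share was 33.1%, the median 39.8% and the highest 57.8%. In the 9 libraries of low sum these were 20.1%, 29.4% and 32.5%. The boundary lies between ISM012-042 replicate 1 at 33.1% and ISM012-042 replicate 6 at 32.5%, so the libraries next to it hardly differ. The sham group had a mean share of 33.8% ± 4.94 (SD, n = 6), the vehicle group 37.5% ± 13.5 and the ISM012-042 group 31.3% ± 6.93. The ranges of the 3 groups overlapped, and the spread was widest in vehicle, which held both the highest library, vehicle replicate 5 at 57.8%, and the library second from the bottom, vehicle replicate 2 at 22.4%.

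**Figure D1:**
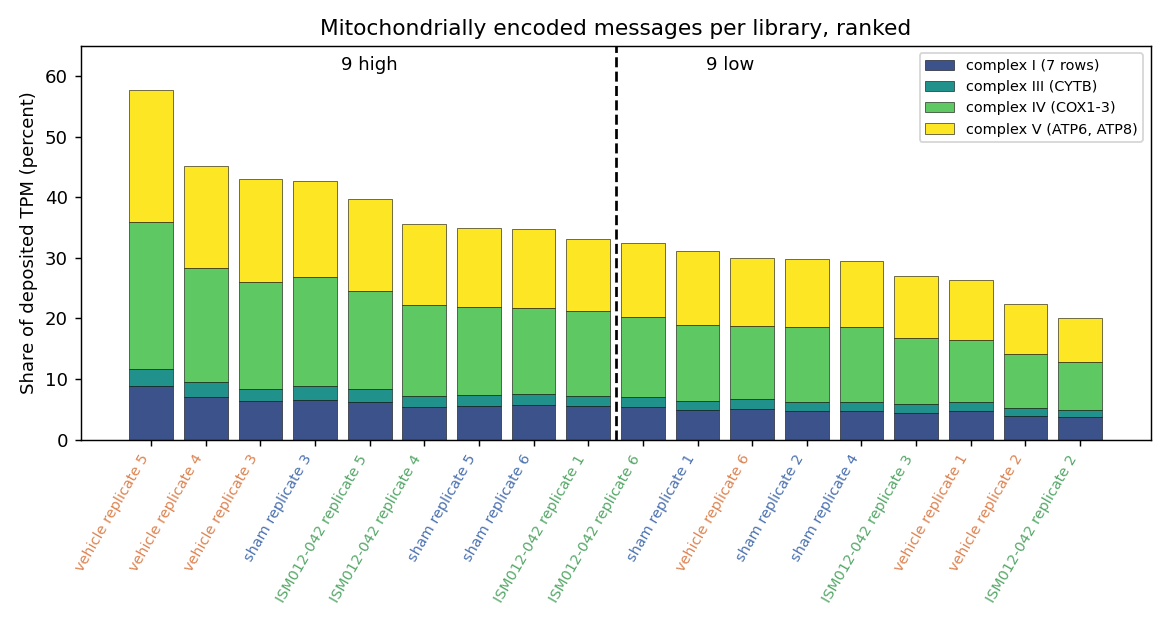
Share of the deposited TPM (percent, vertical axis) taken by the 13 mitochondrially encoded messages in each of the 18 libraries, ranked from left to right, with bars split by respiratory complex and library names coloured by treatment group. The dashed line separates the 9 libraries of high sum from the 9 of low sum, and the shares run from 57.8% in vehicle replicate 5 to 20.1% in ISM012-042 replicate 2 with no gap at the boundary.

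The 13 rows chose the sets, so their values are a description and were not tested. COX1, the catalytic subunit of cytochrome c oxidase (complex IV), spanned 58994 to 103235 TPM in the libraries of high sum, with a median of 68420, and 29218 to 52544 TPM in those of low sum, with a median of 49454. For ND4, a proton-pumping subunit of complex I, the lowest, median and highest values were 9079, 10137 and 15559 TPM in the high set and 6365, 8231 and 9339 TPM in the low set. CYTB, the mitochondrially encoded subunit of complex III, was at 16754, 20146 and 28684 TPM in the high set and at 11663, 15602 and 17181 TPM in the low set. COX1 separated the sets without overlap, while ND4 and CYTB overlapped by a small margin.

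The messages did not differ by one common factor. The ratio of the set medians was lowest for ND3 at 1.20 and ND2 at 1.21, both complex I subunits, and highest for ND6 at 1.52 and ND5 at 1.51. ND6 is the only one of the 13 read from the other strand of the mitochondrial genome, and it was also the rarest, with medians of 168.6 TPM in the high set and 111.0 TPM in the low set. For ND6, 4 low libraries lay above the lowest high library. The order differs by set means, where COX1 was at 71338 and 44532 TPM and ND6 at 176.4 and 116.3 TPM. Complex IV messages held a median of 41.8% of the mitochondrial sum in the high set and 40.2% in the low set. Complex I messages held 15.5% and 16.5%, CYTB 5.14% and 5.58%, and the ATP synthase messages ATP6 and ATP8 together 37.5% and 37.8%. COX1 alone held 16.9% to 17.9% of the sum in the high set, with a median of 17.5%, and 14.5% to 17.5% in the low set, with a median of 16.2%, so the shares overlapped. ATP8 (MT:7766-7969) shares 43 bases with ATP6 (MT:7927-8607), and ND4L (MT:9877-10173) shares 7 bases with ND4 (MT:10167-11544), so reads over these stretches cannot be given to 1 message, and reads of nuclear copies of mitochondrial DNA could be counted in any of the 13 rows.

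For the nuclear genes the mitochondrial rows were removed and each library was rescaled to a sum of 1000000, because TPM is a share and a large mitochondrial sum lowers every other value. Between 14054 and 15018 genes reached a rescaled TPM of 1 in a library, with medians of 14376 in the high set and 14394 in the low set. The depth of TPM values is unknown, and no batch or date is given in the labels. Epithelial identity was present throughout: the mean log2 level of 32 colonocyte genes was 8.87 to 9.56 in the high set and 8.11 to 9.63 in the low set, and 10 of 11 exocrine pancreas genes were below the detection minimum. Because these are bulk samples, fewer cells of a type and less RNA per cell cannot be told apart in any value that follows.

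After removal of the mitochondrial rows, few single genes separated the sets beyond the adjusted threshold, although many leaned the same way. A gene was tested where 6 or more libraries reached a rescaled TPM of 1. Of 14979 such genes, fitted in limma, 0 were higher (percent called 0) and 1 was lower (0.00668% of genes tested) in the libraries of high mitochondrial sum at a Benjamini-Hochberg adjusted p under 0.05. At an unadjusted p under 0.05, 1425 genes stood higher (9.51%) and 2485 stood lower (16.6%), and the median difference over all genes was -0.05 on the log2 scale. Higher genes made up 36.4% of these, against 46.8% under median-ratio scaling, 52.5% under quantile normalization and 2.94% with the mitochondrial rows kept, where the median of all genes was -0.31. All differences below are fitted values of log2(rescaled TPM + 1), high minus low, with their SE and 9 libraries a set, and this scale understates the change of low genes. Unless a test is said to be adjusted, "stood higher" and "stood lower" refer to the unadjusted threshold. In the comparison of the 2 sets they carry the background shares just given. No other gene named below passed the adjusted threshold in the comparison of the 2 sets.

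The gene that passed was Cttnbp2nl (chr3:105001915-105053146, GRCm38.p6), which codes for a cortactin-binding partner of the striatin phosphatase complex. Its lowest, median and highest rescaled TPM were 15.3, 21.3 and 26.3 in the high set and 23.7, 34.5 and 40.1 in the low set. It fell by 0.70 ± 0.10 (limma, adjusted p = 0.0422), and 8 of the 9 high libraries lay below every low library. The sign was the same within each treatment group, with differences of -0.46 among sham, -0.84 among vehicle and -0.79 among ISM012-042 libraries. Because the gene was picked out by its p over these same libraries, the shared sign is a description only. The call was lost when any 1 of sham replicates 3 and 4, vehicle replicates 2, 3, 4 and 5 or ISM012-042 replicates 3, 4, 5 and 6 was left out, with differences between -0.67 and -0.70.

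Behind it came a long tie, in which the other 19 of the 20 leading genes shared an adjusted p of 0.0589. Because fewer than 10 passed in either direction, the 20 were filled by smallest p, 10 higher and 10 lower. Among the 10 that stood higher was Id3 (chr4:136143822-136145392), an inhibitor of helix-loop-helix transcription factors. Its lowest, median and highest values were 136.7, 154.0 and 186.4 rescaled TPM in the high set and 67.4, 102.6 and 135.4 in the low set, a difference of 0.62 ± 0.10. No high library of Id3 overlapped a low one. Such complete separation was found for 4 genes with the high set above (0.0267% of genes tested) and 5 with the high set below (0.0334%). These were Id3, Ndufa2, Bri3 and Gpr19 above, and Plekha2, Hnrnpc, Mbnl3, Tmem194 and D6Wsu163e below, named here after their values were seen.

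Gpx4, the glutathione peroxidase that reduces lipid hydroperoxides and has cytosolic and mitochondrial forms, spanned 255.6 to 488.7 rescaled TPM with a median of 355.4 in the high set. In the low set it spanned 199.1 to 312.8 with a median of 248.0, a difference of 0.54 ± 0.10, and 8 of 9 high libraries exceeded every low one. Hoxd9, a homeobox gene of regional identity, was at 3.54, 6.31 and 11.1 in the high set and 0.41, 1.81 and 4.65 in the low set. Its difference of 1.41 ± 0.25 was the largest of the 10. The others of this direction were Fam213b, a prostaglandin F synthase, Lhpp, a histidine phosphatase, Polr2i, a subunit of RNA polymerase II, Zswim7, a homologous recombination factor, Auh, a mitochondrial enoyl-CoA hydratase of leucine breakdown, and Dgcr6 and Ocel1. Their differences lay between 0.38 for Polr2i and 0.62 for Dgcr6.

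On the other side the widest difference belonged to Aqp4, a water channel, at 4.02, 26.5 and 203.5 rescaled TPM in the high set and 91.1, 216.2 and 452.4 in the low set (-2.62 ± 0.49). Within sham the high libraries were at 132.9 to 203.5 and the low ones at 237.1 to 452.4, and within the TNBS groups 4.02 to 64.7 against 91.1 to 354.3, so the sets did not overlap in either. Fcgbp, a structural protein of goblet cell mucus, was at 226.9, 486.9 and 972.1 in the high set and 450.5, 1121 and 1556 in the low set (-1.07 ± 0.20). Slc16a1, the monocarboxylate transporter that carries lactate and butyrate, was at 56.6, 102.2 and 158.5 in the high set and 118.9, 134.4 and 239.3 in the low set (-0.62 ± 0.12). For Fcgbp 4 of 9 high libraries, and for Slc16a1 6 of 9, lay below every low library.

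The remaining leading genes that stood lower were Iqgap1, a cytoskeletal scaffold, Lims1, an adaptor of focal adhesions, Cbl, a ubiquitin ligase of receptor kinases, Il13ra1, a receptor chain for IL-4 and IL-13, Plekha2, a phosphoinositide-binding adaptor, and Jakmip1, a microtubule-associated protein. Their differences ran from -0.36 for Jakmip1 to -0.64 for Il13ra1. All 20 leading genes had the same sign in each of the 3 treatment groups, and for 16 of them the difference was largest in vehicle. They were chosen by p over these same libraries, so the shared sign is a description only. Over all genes, 64.1% had the sign of the fit of all 18 libraries within sham, 86.3% within vehicle and 74.3% within ISM012-042. The 10 higher genes had a median transcript length of 1346.5 bases and the 10 lower ones 5000 bases, which is taken up below with the lengths of all genes.

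**Figure D2:**
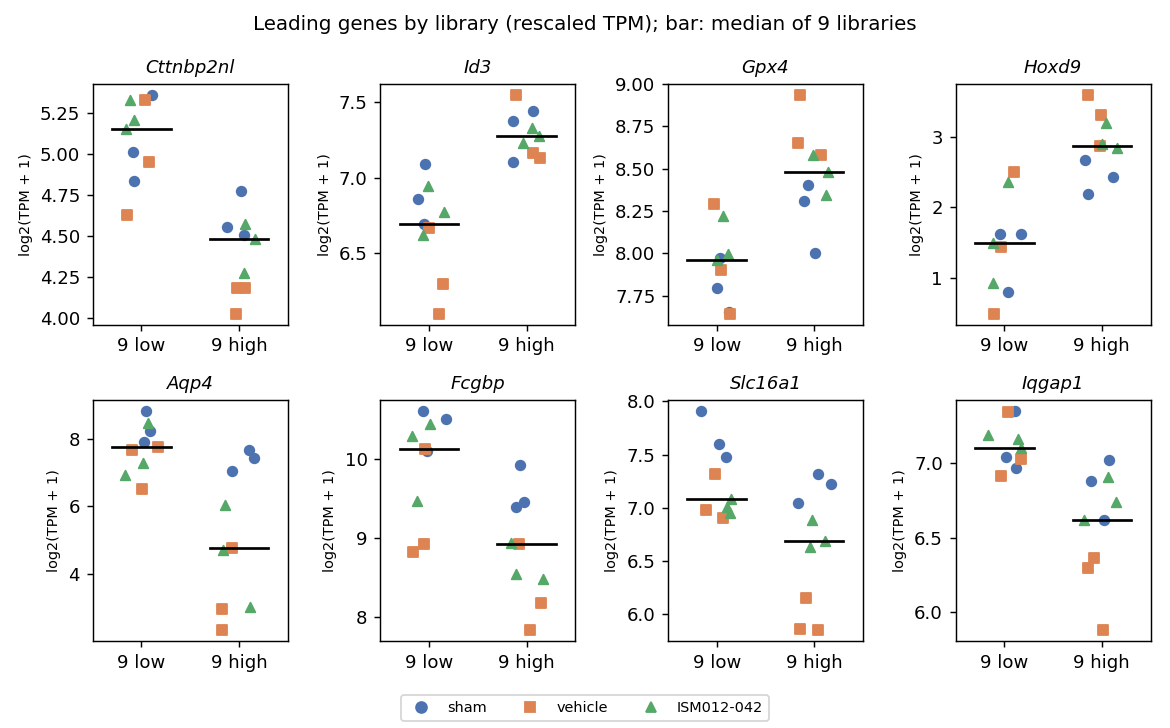
Levels of 8 of the leading genes in each library, as log2(rescaled TPM + 1) on the vertical axis, for the 9 libraries of low and the 9 of high mitochondrial sum, with points coloured and shaped by treatment group and bars at the medians of 9. Id3 shows no overlap between the sets, Cttnbp2nl places 8 of 9 high libraries below all low ones, and in Iqgap1 the 3 vehicle libraries of high sum are the lowest points.

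When the sum entered as a continuous term, in log2, far more genes passed. In this fit 1358 genes were higher (9.07%) and 2595 lower (17.3%) with rising mitochondrial sum at an adjusted p under 0.05, and without vehicle replicate 5, the library of highest sum, 954 and 1775 passed. Cttnbp2nl changed by -0.90 ± 0.18 per doubling of the sum (adjusted p = 0.00234) and Id3 by 0.89 ± 0.15 (adjusted p = 0.000755). This fit used how far each library lay from the boundary, and its calls are given for some of the lists below.

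The nuclear-encoded respiratory chain stood above the median of all genes in the libraries of high mitochondrial sum, as a broad, small shift. Its differences were positive in the rescaled TPM, and in the deposited TPM with the mitochondrial rows kept their medians were negative, though above that of all genes. Of 79 nuclear subunits of the 5 complexes, 70 had a positive difference, 36 stood higher (45.6%, against 9.51% of all genes) and 0 stood lower, with a median of 0.16 against -0.05 over all genes. None passed the adjusted threshold, the smallest adjusted p being 0.0589. In the continuous fit 46 of 79 (58.2%, against 9.07% of all genes) passed as higher and 0 as lower. By complex, the median difference was 0.19 for 36 genes of complex I, 0.17 for 9 of complex III, 0.18 for 14 of complex IV and 0.14 for 16 of the ATP synthase, and with the mitochondrial rows kept these became -0.10, -0.13, -0.12 and -0.16, all above the -0.31 of all genes. The 4 subunits of complex II, the complex that has no mitochondrially encoded part, had a median of 0.03, with 0 standing higher or lower. In the continuous fit 1 of the 4 passed as higher (25%, against 9.07% of all genes). Within sham, vehicle and ISM012-042 the complex II median was -0.03, 0.01 and 0.21. The median transcript length was 1025.5, 1363, 815 and 1553.5 bases for complexes I, III, IV and V, and 2066 for complex II. Of the 2828 genes in the shortest 20% (up to 1810 bases), 457 stood higher and 264 lower, with a median of 0.04. The lists were not compared with genes of matched length.

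Among single subunits, Ndufa2, an accessory subunit of complex I, was at 292.9, 310.1 and 419.1 rescaled TPM in the high set and 244.6, 271.7 and 286.8 in the low set, with no overlap (0.34 ± 0.08). Ndufs7, which holds an iron-sulphur cluster of complex I, was at 254.3, 288.4 and 373.3 in the high set and 192.0, 239.8 and 258.1 in the low set (0.37 ± 0.08). Cox4i1, a nuclear partner of COX1 in complex IV, was at 1580, 2237 and 2708 in the high set and 1314, 1633 and 1994 in the low set (0.38 ± 0.10). For Ndufs7 7 of 9 and for Cox4i1 6 of 9 high libraries lay above every low one. Ndufb7 (0.40 ± 0.10), Cox8a (0.35 ± 0.10), Atp5d (0.32 ± 0.07) and Uqcr10 (0.25 ± 0.08, and -0.05 with the mitochondrial rows kept, where the median of all genes was -0.31) also stood higher. Sdhb of complex II did not (0.17 ± 0.09), but it passed as higher in the continuous limma fit (0.38 ± 0.10 per doubling, adjusted p = 0.0109).

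Promoters of nuclear respiratory genes are known to carry sites for NRF1, a factor that drives many of them together. The NRF1 motif GCGCANGCGC, searched on both strands in the 250 bases before RefSeq gene starts (GRCm38.p6), was present in 21.1% of 71 windows of the nuclear respiratory genes and in 3.74% of all 32851 windows. The promoters of 3 genes are shown because their genes stood higher and their last 120 bases before the start hold the motif, in capitals. They were chosen after the values were seen, and a match is a description of the letters only. The stretches are chr16:37654369-37654488, chr6:24527691-24527810 and chr13:73328483-73328602, all on the minus strand and written 5′ to 3′.
Ndufb4: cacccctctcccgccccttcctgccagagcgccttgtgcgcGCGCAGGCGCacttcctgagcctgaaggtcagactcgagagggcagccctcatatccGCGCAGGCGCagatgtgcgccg
Ndufa5: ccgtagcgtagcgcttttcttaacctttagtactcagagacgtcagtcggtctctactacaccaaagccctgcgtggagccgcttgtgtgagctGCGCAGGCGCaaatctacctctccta
Ndufs6: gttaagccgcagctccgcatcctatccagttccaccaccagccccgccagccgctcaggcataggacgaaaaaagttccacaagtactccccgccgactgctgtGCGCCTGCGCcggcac

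Ndufb4, an accessory subunit of the complex I membrane arm, was at 81.1, 100.4 and 168.6 rescaled TPM in the high set and 60.8, 76.8 and 91.7 in the low set (0.51 ± 0.12). Ndufa5 was at 268.2, 294.2 and 399.9 against 215.4, 265.0 and 293.8 (0.28 ± 0.08), and Ndufs6 at 369.2, 432.0 and 477.4 against 270.0, 341.7 and 416.7 (0.28 ± 0.08). For each of the 3 genes all 9 high libraries lay above the median of the low set, and the sets overlapped. With the mitochondrial rows kept, Ndufa5 and Ndufs6 were both at -0.02, where the median of all genes was -0.31.

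The factors that make and handle mitochondrial RNA did not share this direction. Their transcripts were longer, with a median of 2728 bases for transcription and replication and 3143.5 bases for processing and decay. Over all genes of 1811 to 2765 and of 2766 to 3750 bases the median difference was -0.03 and -0.07. Of 16 genes for transcription and replication of mitochondrial DNA, 0 stood higher and 1 lower (median -0.11). Tfam, which packages mitochondrial DNA and starts its transcription, had medians of 36.6 rescaled TPM in the high set and 38.8 in the low set (-0.08 ± 0.09), and Polrmt, the mitochondrial RNA polymerase, 7.36 and 8.46 (-0.07 ± 0.10). The ranges of both genes overlapped almost whole. Among 22 genes of mitochondrial RNA processing and decay 2 stood higher and 3 lower (median -0.06), including Pnpt1, the RNA-degrading polynucleotide phosphorylase (-0.37 ± 0.17). Of 15 regulators of mitochondrial biogenesis 2 stood higher and 3 lower. Ppargc1a, the coactivator PGC-1 alpha, had medians of 19.7 in the high set and 23.8 in the low set (-0.05 ± 0.27), while Esrra, a nuclear receptor it works with, stood higher (0.25 ± 0.08, and -0.04 with the mitochondrial rows kept, where all genes had a median of -0.31) and Gabpa, a subunit of the factor NRF2, stood lower (-0.34 ± 0.10).

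Other mitochondrial pathways were mixed. The mitochondrial ribosome had 6 of 76 proteins standing higher and 1 lower (median 0.04), and the citric acid cycle 0 of 18 in either direction (median -0.03). Of 23 genes of fatty acid oxidation and ketogenesis 5 stood higher and 1 lower (median 0.22, but -0.14 with Hoxb13 as a covariate, and -0.08 with the mitochondrial rows kept, where all genes had a median of -0.31). Within sham alone the median of these genes was -0.26, with 21 of 23 negative, within vehicle it was 0.17 and within ISM012-042 it was 0.68, and the difference between groups was not tested. Etfb, which passes electrons from fatty acid oxidation to the respiratory chain, stood higher (0.51 ± 0.14), and Acsm3, a medium-chain acyl-CoA synthetase, stood lower (-1.19 ± 0.27). Pink1, the kinase that marks damaged mitochondria for removal, was at 64.2, 79.5 and 118.6 in the high set and 31.7, 56.4 and 73.9 in the low set, with 7 of 9 high libraries above every low one (0.59 ± 0.15). Of 80 cytosolic ribosomal proteins 7 stood higher (8.75%, against 9.51% of all genes) and 3 lower (3.75%, against 16.6%), with a median of 0.04.

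**Figure D3:**
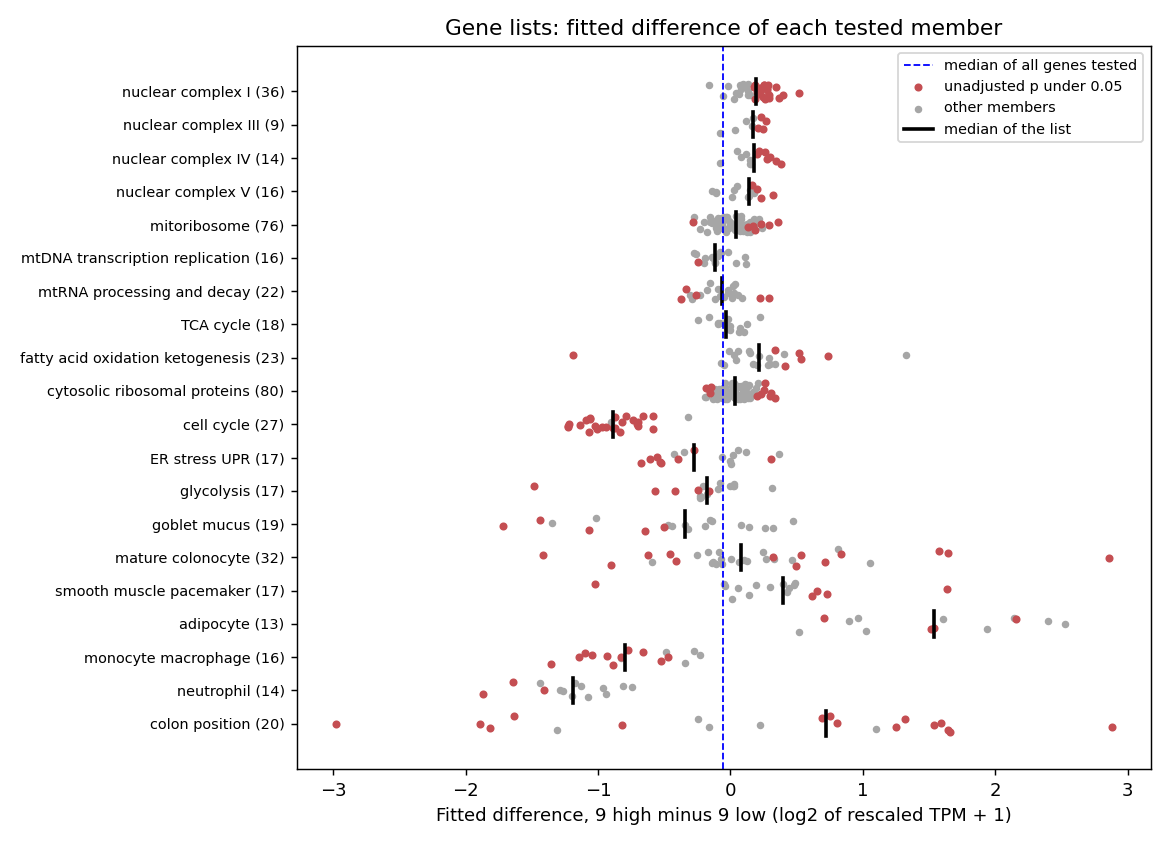
Fitted difference, high minus low mitochondrial sum, in log2(rescaled TPM + 1) for each tested member of 20 gene lists, with the number of members in brackets, red points for an unadjusted p under 0.05 and black bars at list medians. The medians of complexes I, III, IV and V sit just to the right of the dashed median of all genes (-0.05). With the mitochondrial rows kept they would be -0.10 to -0.16 where that of all genes is -0.31. The cell cycle members are all to the left of it.

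Of the 45 lists examined, that of the cell cycle had the largest share of members standing lower in the libraries of high mitochondrial sum. All 27 members had negative differences, 25 stood lower (against 16.6% of all genes), 0 stood higher, and the median was -0.88. None passed the adjusted threshold in the comparison of sets. In the continuous fit all 27 passed as lower (against 17.3% of all genes). They also did so without vehicle replicate 5, where 1775 of all 14979 genes passed as lower. Mki67, a marker of dividing cells, was at 4.82, 25.2 and 54.9 rescaled TPM in the high set and 20.5, 46.3 and 73.9 in the low set (-1.23 ± 0.37). Bub1b, a mitotic checkpoint kinase (-1.13 ± 0.34), and Mcm4, a subunit of the replicative helicase (-0.74 ± 0.22), also stood lower.

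This pattern was not seen in every treatment group. The median difference of the 27 genes was 0.14 within sham, -2.12 within vehicle and -0.86 within ISM012-042, from 3 against 3 libraries each. Mki67 was at 29.2, 30.4 and 34.0 in the sham libraries of high sum and at 20.5, 32.1 and 37.1 in those of low sum, so the sham sets overlapped fully. In the 12 TNBS libraries it was at 4.82 to 54.9 in the high set and 43.0 to 73.9 in the low set. The difference between TNBS and sham, tested as an interaction in limma, was -1.99 for Mki67 with an adjusted p of 0.460, and over all genes it passed for 0 higher and 0 lower (percent called 0 both ways), with 378 (2.52%) and 1056 (7.05%) at an unadjusted p under 0.05.

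Promoters of genes expressed in mitosis are known for a CHR element, TTTGAA, near CCAAT boxes. On either strand of the 250 bases before the gene start, CHR letters were present in 33.3% of 24 windows of the cell cycle genes and in 15.99% of all windows, and CCAAT in 87.5% and 33.8%. The 2 motifs share no fixed overlap. The 3 promoters below were chosen after the values were seen, as the first by p that hold both, and both motifs are in capitals. They lie at chr11:99024190-99024309 (minus strand), chr19:37376262-37376381 (plus strand) and chr4:118437344-118437463 (minus strand).
Top2a: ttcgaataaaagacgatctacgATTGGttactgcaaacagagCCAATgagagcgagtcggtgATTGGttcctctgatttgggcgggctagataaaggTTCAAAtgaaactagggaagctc
Kif11: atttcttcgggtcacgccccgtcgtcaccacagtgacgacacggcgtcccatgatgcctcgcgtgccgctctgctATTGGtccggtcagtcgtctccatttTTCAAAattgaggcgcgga
Cdc20: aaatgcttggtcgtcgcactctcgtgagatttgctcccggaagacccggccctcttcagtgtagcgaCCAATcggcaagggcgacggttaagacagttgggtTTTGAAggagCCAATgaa

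Top2a, the topoisomerase that untangles sister chromosomes, was at 6.53, 27.5 and 80.8 rescaled TPM in the high set and 20.9, 56.8 and 98.2 in the low set (-1.23 ± 0.39). Kif11, a motor of the mitotic spindle, was at 2.16, 8.66 and 28.2 against 7.48, 19.2 and 33.0 (-1.06 ± 0.36). Cdc20, the activator of the anaphase-promoting complex, was at 5.99, 15.7 and 47.4 against 10.2, 32.0 and 61.04 (-0.88 ± 0.38). For each of the 3 genes 8 of 9 high libraries lay below the median of the low set, and the ranges overlapped.

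Genes of position along the colon leaned both ways. Hoxb13 (chr11:96194316-96196610), a posterior homeobox gene that marks the most distal colon, was at 0.55, 13.3 and 414.2 rescaled TPM in the high set and 23.3, 243.4 and 407.9 in the low set (-2.98 ± 0.91). Within sham the sets overlapped, with 13.9, 354.2 and 414.2 against 23.3, 310.2 and 407.9. Within the TNBS groups all 6 high libraries, at 0.55 to 78.8, lay below all 6 low ones, at 101.9 to 288.8, so among these libraries Hoxb13 level and mitochondrial set cannot be told apart.

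Of 20 tested genes of colon position 10 stood higher and 5 lower (median 0.72). The more anterior homeobox genes Hoxb5 (1.32 ± 0.34) and Hoxb7 (1.59 ± 0.45) were among the higher ones and Hoxa13 (-1.64 ± 0.44), with Hoxb13 a member of the last group of the clusters, among the lower ones. Homeobox clusters hold antisense and overlapping transcripts, and whether reads were counted by strand is not given in the sources used here. Insl5, the peptide of L cells of the distal colon, was at 2.75, 34.2 and 468.7 in the high set and 73.7, 230.2 and 358.1 in the low set (-2.39 ± 0.69). Within sham the sets overlapped for Insl5 (55.7 to 468.7 in high against 91.9 to 358.1 in low libraries) and Hoxb7 (1.96 to 5.97 against 0.99 to 6.51). They also overlapped there for Hoxb5 (3.99 to 11.7 against 2.73 to 8.27) and Hoxa13 (56.6 to 60.5 against 51.2 to 96.3).

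With the log2 level of Hoxb13 as a covariate, 561 genes stood higher and 765 lower at an unadjusted p under 0.05, in place of 1425 and 2485. The cell cycle list then had 0 of 27 members standing lower and a median of -0.37. Complex I had 10 of 36 standing higher with a median of 0.15, and the monocyte and macrophage list 4 of 16 standing lower with a median of -0.49.

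Epithelial genes split by kind. Of 32 colonocyte genes 8 stood higher and 5 lower (median 0.08). Slc51b, a subunit of the basolateral bile acid exporter, was at 61.4, 205.4 and 613.8 rescaled TPM in the high set and 29.5, 58.6 and 206.3 in the low set (1.57 ± 0.39). Guca2b, which codes for uroguanylin, stood higher (0.83 ± 0.26) and Aqp8, a water channel of surface colonocytes, stood lower (-1.41 ± 0.44). Its members thus leaned both ways.

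Of 19 goblet cell genes 0 stood higher and 5 lower (median -0.34). Clca1, a secreted metalloprotease of mucus, was at 498.3, 2086 and 12714 in the high set and 1201, 7603 and 16850.3 in the low set (-1.72 ± 0.46). Spink4 stood lower as well (-1.44 ± 0.37), while Muc2, the gel-forming mucin itself, spanned 772.4 to 4425 in the high set and 1061 to 3789 in the low set (0.32 ± 0.32). The lower members thus did not include the main mucin. Of 14 crypt stem and progenitor genes 0 stood higher and 4 lower, among them Lgr5, the stem cell receptor (-0.51 ± 0.16), which was near the detection minimum with medians of 1.55 and 2.47.

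**Figure D4:**
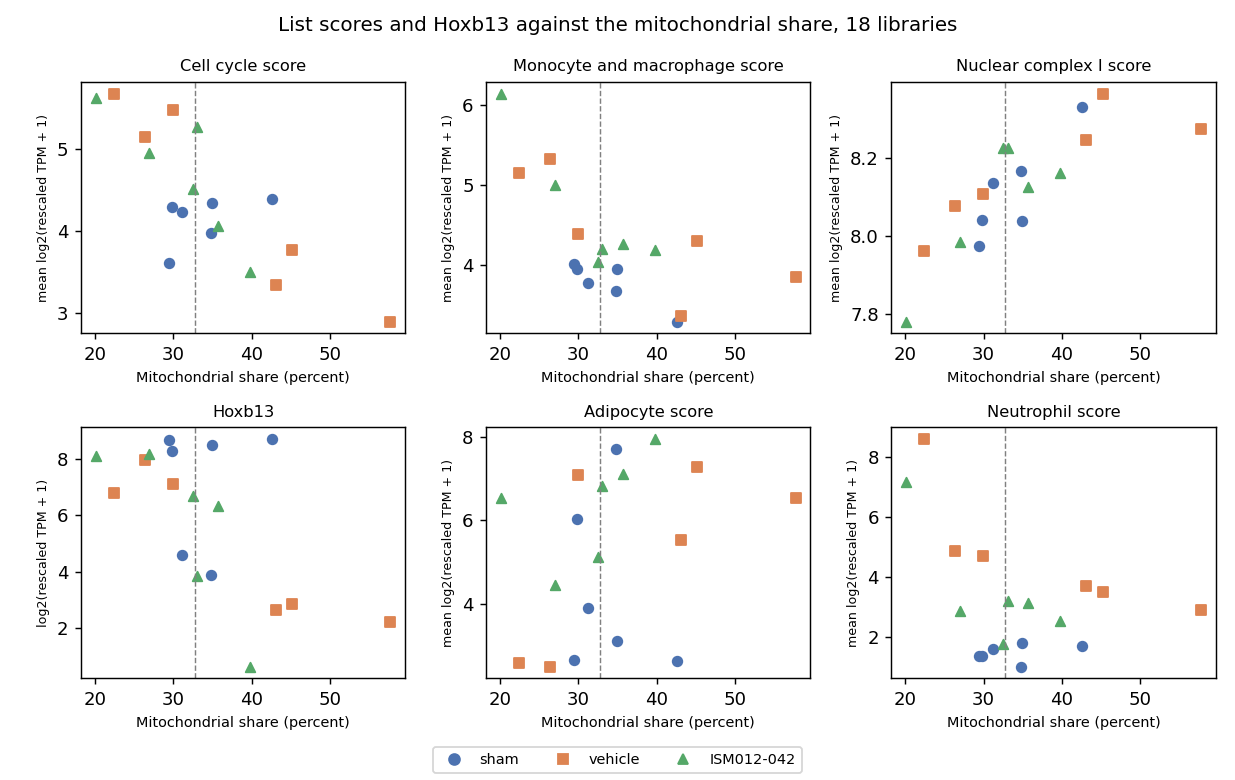
Mean log2(rescaled TPM + 1) of the members of 5 gene lists, and the log2 level of Hoxb13, on the vertical axes against the mitochondrial share (percent) of the 18 libraries, marked by treatment group, with dashed lines at the boundary between the sets. Complex I scores are 8.04 to 8.37 in the high and 7.78 to 8.23 in the low set, cell cycle scores 2.89 to 5.27 and 3.61 to 5.68 with the sham libraries close together, and the neutrophil score is highest in vehicle replicate 2 at 8.61 and next in ISM012-042 replicate 2 at 7.18.

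Markers of macrophages leaned lower in the libraries of high sum. Of 16 monocyte and macrophage genes 11 stood lower, 0 higher, and all 16 differences were negative (median -0.80). Their summed level was 335.0 to 699.2 rescaled TPM in the high set (median 631.3) and 546.2 to 2362 in the low set (median 699.1). The highest score of this list, 6.14, was in ISM012-042 replicate 2. Ccr2, the chemokine receptor of recruited monocytes, was at 1.39, 3.74 and 5.67 in the high set and 3.46, 7.98 and 56.9 in the low set (-1.36 ± 0.36), and all 9 high libraries lay below the low median. Ms4a7 (-0.66 ± 0.17) and Adgre1, which codes for F4/80 (-0.77 ± 0.21), were the other leading members, and in both all 9 high libraries also lay below the low median.

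All 14 tested neutrophil genes had negative differences (median -1.19), but 3 stood lower in the comparison of sets, and the summed level was 52.7 to 1252 in the high set and 115.3 to 33935 in the low set. In the continuous fit all 14 passed as lower (against 17.3% of all genes). Without vehicle replicate 5, 10 of 14 did so, where 1775 of all 14979 genes passed as lower. Csf3r, the receptor for granulocyte colony-stimulating factor, was at 0.998, 2.62 and 4.83 in the high set and 1.18, 9.40 and 144.5 in the low set (-1.64 ± 0.61). Ly6g (-1.87 ± 0.82) reached 1229 in a sham library of high sum, in a set of 3 where the neutrophil score was 1.01 to 1.79, so in sham it did not follow the other markers. Leaving out vehicle replicate 2 and ISM012-042 replicate 2, the libraries of highest neutrophil score, moved the neutrophil median to -0.27. The cell cycle median became -0.66 with 13 of 27 standing lower, and the complex I median 0.16 with 14 of 36 standing higher. Over all 14979 genes 1105 then stood higher and 1908 lower.

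Of 17 genes of the unfolded protein response 7 stood lower and 1 higher (median -0.28). In the continuous fit 9 of the 17 passed as lower (52.9%, against 17.3% of all genes). Hsp90b1, the chaperone GRP94, was at 226.4, 443.9 and 652.9 rescaled TPM in the high set and 547.6, 625.9 and 954.7 in the low set (-0.68 ± 0.19), with 7 of 9 high libraries below every low one, and Pdia4, a disulfide isomerase, was close behind (-0.61 ± 0.20). The Hsp90b1 difference was -0.29 among sham, -1.40 among vehicle and -0.34 among ISM012-042 libraries. Of 21 immediate early and heat shock genes 3 stood higher and 3 lower (median 0.02). Jund, a component of the AP-1 transcription factor, stood higher at 163.9, 224.3 and 332.0 against 105.8, 148.8 and 165.8 (0.62 ± 0.14).

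Glycolytic genes leaned lower. Of 17 genes 5 stood lower and 0 higher (median -0.17). In the continuous fit 9 of the 17 passed as lower (52.9%, against 17.3% of all genes). Pgk1, phosphoglycerate kinase, was at 182.3, 255.1 and 353.2 in the high set and 272.0, 356.2 and 652.9 in the low set (-0.57 ± 0.18). Slc16a3, the transporter that exports lactate, was at 4.17, 9.85 and 23.8 against 13.2, 18.1 and 118.1 (-1.48 ± 0.46), with 8 of 9 high libraries below every low one. Both were near 0 within sham, at 0.03 for Pgk1 and -0.03 for Slc16a3. Of 19 targets of hypoxia-inducible factor, some of them glycolytic, 3 stood lower (15.8%, against 16.6% of all genes) and 0 higher (median -0.19). In the continuous fit 7 of the 19 passed as lower (36.8%, against 17.3% of all genes) and 0 as higher.

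Genes of fat, muscle and red cells leaned higher with wide spread. All 13 adipocyte genes had positive differences and 4 stood higher (median 1.54). In the continuous fit 2 of the 13 passed as higher (15.4%, against 9.07% of all genes). The summed levels of the 13 were 307.0 to 8360 rescaled TPM in the high set and 203.6 to 5100 in the low set. Adipoq, the fat cell hormone adiponectin, had medians of 219.8 in the high set and 17.02 in the low set with at least 1 library listed at 0 in each, and highest values of 477.0 and 229.2 (2.40 ± 1.30), a difference within the spread, while Pnpla2, the lipase that opens stored fat, stood higher (0.71 ± 0.21). With the adipocyte score as a covariate the complex I median was 0.19 with 18 of 36 standing higher, and the cell cycle median -0.77 with 15 of 27 standing lower. Over all 14979 genes 671 stood higher and 1808 lower in that fit.

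Smooth muscle and pacemaker genes had 4 of 17 standing higher and 1 lower (median 0.40). In the continuous fit 7 of the 17 passed as higher (41.2%, against 9.07% of all genes) and 0 as lower. The summed level was 3415 to 12605 in the high set and 3023 to 10403 in the low set. Their median difference was 0.32 within sham and 1.05 within vehicle but -0.34 within ISM012-042, where 13 of 17 were negative, and the difference between groups was not tested. Pcp4, a calmodulin-binding protein of smooth muscle and neurons, was at 21.4, 45.4 and 74.7 against 3.64, 15.95 and 43.6 (1.63 ± 0.39), and all 9 high libraries lay above the low median. Ano1, the chloride channel of the interstitial cells of Cajal that pace the gut, stood lower (-1.02 ± 0.32). Of 5 tested erythroid genes 1 stood higher (median 0.89). All 5 passed as higher in the continuous fit (against 9.07% of all genes). Hbb-bs, a beta globin with near-identical copies that share reads, had a difference of 0.92 ± 0.46. The part of other cell types in the results for the respiratory chain and the cell cycle was not tested beyond the covariates and left-out libraries given.

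Measures of RNA composition moved with the sets too. Short transcripts leaned higher and long ones lower in the libraries of high sum: over 14136 genes with a known length (94.4%), the median difference was 0.04 in the shortest 20% (up to 1810 bases) and -0.12 in the longest 20% (from 5117 bases). By GC content the medians ran from -0.15 in the lowest 20% to 0.07 in the highest 20%. Both gradients were present within sham and within vehicle. In ISM012-042 the length medians were -0.08 in the shortest and -0.12 in the longest 20%. The GC medians there were -0.08 in the lowest and -0.11 in the highest 20%. The median log2 level of the shortest less that of the longest 20% of genes was 0.53, 0.79 and 1.18 in the high set and 0.34, 0.70 and 0.89 in the low set, so the sets overlapped.

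**Figure D5:**
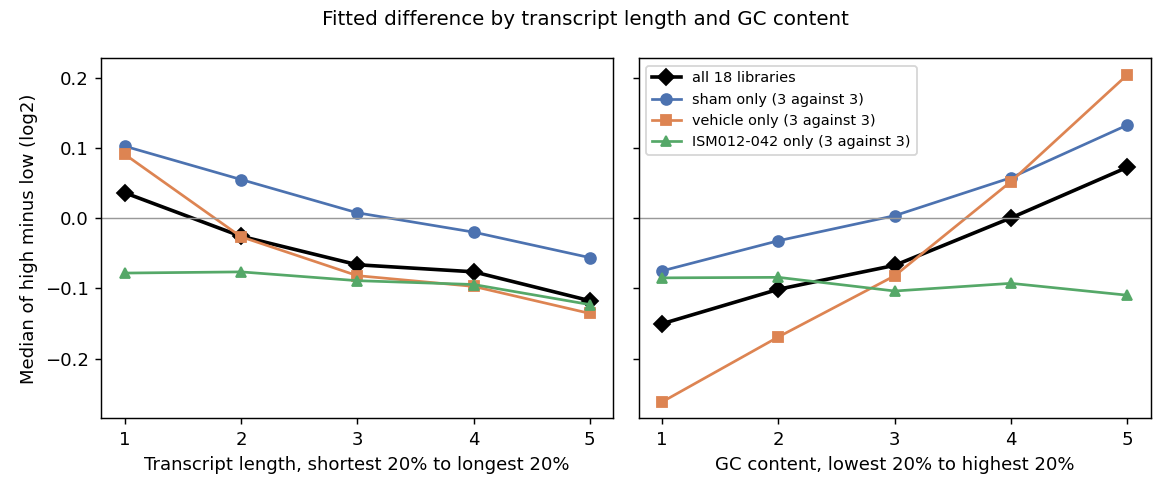
Median fitted difference, high minus low mitochondrial sum in log2, for genes in 5 bins of transcript length (left) and of GC content (right), over all 18 libraries and within each treatment group of 3 against 3. Over all libraries the medians go from 0.04 to -0.12 with length and from -0.15 to 0.07 with GC content, and the ISM012-042 libraries are nearly flat against GC content.

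With that short-minus-long value as a covariate, 23 of 36 complex I genes stood higher (median 0.22). Of the 27 cell cycle genes 26 stood lower in that fit (median -1.11). Without the covariate these medians were 0.19 and -0.88. The covariate is 1 value per library and does not match genes on length, so a part of transcript length in these lists was not tested. Over all 14979 genes 2070 stood higher and 2616 lower with the covariate. Of 9 tested small structured RNAs 2 stood higher, among them Rpph1, the RNA of ribonuclease P (1.30 ± 0.33). It was at 0.96, 2.32 and 7.74 rescaled TPM in the high set, while the median low library was listed at 0 and the highest at 4.10. Most low libraries were below 1, so Rpph1 met the minimum for testing through the high set. Its difference and its place in the count are a description only. Malat1, a long RNA kept in the nucleus, was at 54.4, 117.3 and 342.5 against 71.8, 89.3 and 298.6 (0.11 ± 0.28), with no difference beyond the spread, and of 22 splicing regulators with retained introns 2 stood higher and 7 lower (median -0.12).

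Fits within the treatment groups differed in how many genes passed. In the 12 TNBS libraries alone 460 genes were higher and 971 lower at an adjusted p under 0.05 in limma, in vehicle alone (3 against 3) 152 and 480, in ISM012-042 alone 0 and 0, and in sham alone 0 and 0. At an unadjusted p under 0.05 ISM012-042 had 908 higher and 1152 lower and sham 291 higher and 61 lower. The mitochondrial shares of the 2 sets were 43.1% to 57.8% against 22.4% to 30.0% in vehicle, 33.1% to 39.8% against 20.1% to 32.5% in ISM012-042, and 34.8% to 42.6% against 29.4% to 31.2% in sham, so the contrast was widest in vehicle.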

How the data were processed

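The values are TPM as deposited by the authors, 1 column a library for 35976 gene symbols, and the submitters' processing notes name DRAGEN 4.0.3 and the build mm10 without the role of each. Total RNA of colon was purified on columns and reverse transcribed, per the labels' protocols. The sources used here do not give the counting method, annotation or strandedness. TPM keeps no depth, so no counting interval is given. All 18 columns matched a sample by name, and 0 columns had no sample. Groups and replicate numbers came from the sample titles. No 2 libraries were alike enough to be 1 library deposited more than once (highest correlation of log2 values 0.994).

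The 13 mitochondrial rows were summed per library to rank the libraries, then removed, and each library was rescaled to 1000000. Values were taken to log2(rescaled TPM + 1), a pseudocount of 1. A gene needed a rescaled TPM of 1 or more in 6 libraries to enter the fit, which was made with limma 3.58.1 (R 4.3.3) on set and treatment group over all 18 libraries, with trend and robust empirical Bayes and Benjamini-Hochberg adjustment over the 14979 genes. The script was tested on simulated data. An interaction term compared the TNBS groups with sham. Symbols were matched to RefSeq (GRCm38.p6, the assembly of mm10), where 32501 had an entry.

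The sets, the 45 gene lists (880 genes) and the rules were chosen with earlier results of these data known. Genes named are the 10 leading in each direction with a mean of at least 5 rescaled TPM in the higher set, leaving out predicted genes, receptor segments and mitochondrial rows, filled by smallest p where fewer passed, up to 3 members of each list by p, and 23 fixed genes. Genes named outside the rule are Top2a, Kif11, Cdc20, Ndufb4, Ndufa5 and Ndufs6, and those named for their call across the whole table. Same-numbered libraries of different groups had correlations of their deviations between -0.373 and 0.613, so the numbers were not shown to pair the samples. The alternatives tried were other pseudocounts, filters, scalings, splits, covariates, subsets and variance settings, a replicate block, and each library left out. 4 of them were added after the data had been seen: the continuous fit without vehicle replicate 5, leaving out vehicle replicate 2 with ISM012-042 replicate 2, Hoxb13 with the adipocyte score, and the short-minus-long value.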

Additional observations from a re-analysis of the deposited data

Results flagged for a closer look

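In 155 sets of 9 or 6 values checked, 7 held a library far from the others by Dixon's criterion, which chance gives in about 1 of 20 such sets. Vehicle replicate 5 stood apart among the 9 libraries of high mitochondrial sum, with a share of 57.8%. Among the libraries of low sum, in log2(rescaled TPM + 1), ISM012-042 replicate 6 was high for Zswim7 at 4.10 and ISM012-042 replicate 3 was high for Jakmip1 at 5.07. Ndufb7 was low in sham replicate 4 at 8.40, and Uqcr10 was low in ISM012-042 replicate 2 at 9.97. Hoxb13 was low in sham replicate 1 at 4.61, and Malat1 was high in ISM012-042 replicate 3 at 8.23. No explanation was tested for these values.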

How the results depend on the processing

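The number of genes past the adjusted threshold depended on the processing. Against 0 higher and 1 lower, a pseudocount of 5 gave 3 and 1, no filter 0 and 2, a minimum of 5 rescaled TPM 2 and 1, array weights 4 and 1, and quantile normalization 87 and 47. The deposited TPM with the mitochondrial rows kept gave 101 and 5681. The continuous sum gave 1358 and 2595, or 954 and 1775 without vehicle replicate 5. TNBS libraries alone gave 460 and 971 and vehicle libraries alone 152 and 480. The short-minus-long value as a covariate, added after the data had been seen, gave 665 and 674. No gene passed in either direction (0 and 0) with median-ratio scaling, without the treatment group, without ranks 9 and 10, with Hoxb13, the adipocyte score, the neutrophil score or Hoxb13 and the adipocyte score as covariates, with sham or ISM012-042 libraries alone, with plain empirical Bayes, or without the 2 libraries of highest neutrophil score. At an unadjusted p under 0.05 these settings gave between 291 and 1855 higher and between 61 and 2570 lower genes. Leaving out 1 library gave 0 to 192 higher and 0 to 381 lower genes, and the counts came to 192 and 381 without sham replicate 1, 131 and 226 without sham replicate 5, 137 and 357 without sham replicate 6, 8 and 3 without ISM012-042 replicate 2, 4 and 1 without vehicle replicate 6, and 1 and 1 without ISM012-042 replicate 1. The difference between TNBS and sham called 0 genes under the pseudocounts, the stricter filter, median-ratio scaling and plain empirical Bayes, and 0 to 31 with 1 library left out, the 31 without ISM012-042 replicate 1. The cause of these changes was not tested, beyond the smaller numbers of libraries.

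With the replicate number as a block, 0 genes were higher and 0 lower, 694 and 1147 at an unadjusted p under 0.05, and Tfam changed sign to 0.038 and Malat1 to -0.27. The numbers were not shown to pair the samples.

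Of 75 genes named with values, 55 kept their sign in every setting that gave a value for them, up to 42 settings a gene. With the mitochondrial rows kept, where the median of all genes was -0.31, Sdhb was at -0.13, Uqcr10 at -0.052, Esrra at -0.042, Malat1 at -0.19, Ndufa5 at -0.023 and Ndufs6 at -0.018. Within sham alone Sdhb was at -0.030, Mki67 at 0.097, Bub1b at 0.089, Csf3r at 0.11, Ly6g at 0.11, Pgk1 at 0.028, Muc2 at -0.19, Top2a at 0.10, Kif11 at 0.17 and Cdc20 at 0.44. With Hoxb13 as a covariate Ly6g was at 0.64 and Muc2 at -0.42, and with the adipocyte score added 0.63 and -0.44. Adipoq was at -0.19 with the adipocyte score, of which it is a member, and at -0.27 with Hoxb13 as well. Polrmt was at 0.0062 under quantile normalization and 0.090 within ISM012-042, and Pnpt1 at 0.036 within ISM012-042. Malat1 was at -0.33 in TNBS libraries, -0.14 within vehicle, -0.51 within ISM012-042, and from -0.072 (without sham replicate 3) to 0.28 with 1 library left out. Ppargc1a was at 0.031 under quantile normalization, 0.37 in the continuous fit and 0.51 in that fit without vehicle replicate 5, 0.13 without ranks 9 and 10, 0.29 within vehicle and 0.17 with the short-minus-long value, and from -0.23 to 0.059 with 1 library left out, above 0 without sham replicate 3 or 4, vehicle replicate 1 or ISM012-042 replicate 1, 3 or 6.

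TPM has no depth, so the precision of low genes, such as Lgr5 and Rpph1, is known only from the spread between libraries. Each fit within a treatment group rests on 3 libraries against 3.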

Other observations

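Several other cell types and pathways had few members past the unadjusted threshold between the libraries of high and low mitochondrial sum. Of 14 endothelial genes, 11 T and NK cell genes and 14 B and plasma cell genes, 0 stood higher or lower in any of the 3 lists, with medians of -0.00, 0.10 and -0.25. These medians join groups that leaned apart, with the difference between groups not tested. Within sham, vehicle and ISM012-042 the endothelial median was 0.28, 0.28 and -0.40, that of T and NK cell genes 0.10, 0.61 and -0.41, and that of B and plasma cell genes -0.18, 0.64 and -1.95. Fibroblast and matrix genes had 3 of 18 standing lower and 0 higher (median -0.13), with 17 of 18 positive within sham and 0 of 18 within ISM012-042. For enteric neuron and glia genes 2 of 16 stood higher and 1 lower (median 0.20). Of 27 interferon-stimulated genes 1 stood higher and 0 lower (median 0.08).

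Enteroendocrine genes, which code for gut hormones and their processing, leaned both ways: 3 of 14 stood higher and 4 lower, with Insl5 at the low end. Mitochondrial import genes had 2 of 25 standing higher and 2 lower (median 0.05), and mitochondrial chaperones and proteases 2 of 15 higher and 1 lower (median 0.01). Of 17 genes of mitochondrial dynamics and mitophagy 3 stood higher, Pink1 among them, and 1 lower (median -0.07). Replication-dependent histones, most of whose messages lack a poly(A) tail, had 1 of 19 tested members standing higher and 1 lower (median -0.22), and 9 more were below the detection minimum.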
